A study of Mus musculus with 5 samples.

Results

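The 6 genes described here encode the type 2 cytokines IL-4, IL-5, IL-13 and IL-9 together with IL-3 and GM-CSF (Csf2). They were taken by symbol from a table of 24417 named genes, and all 6 have a row in it. Of these, 5 passed the filter on low counts that left 14164 genes for testing, and Il9 did not. The table holds RNA-seq counts of cells from the lamina propria of the mouse colon, the connective tissue under the gut epithelium. In every library the strain label gives a Foxp3 allele tagged with DTR-GFP (a diphtheria toxin receptor joined to green fluorescent protein) and, beside it, a reporter-null allele, Foxp3 loxp-Thy1.1-STOP-loxp-GFP, in which a Thy1.1 cassette ending in a stop signal interrupts the gene. The reporter-null group is 3 libraries of Thy1.1-positive cells; Thy1.1 is the marker of the interrupted allele. The Treg group is 2 libraries of cells sorted for the DTR-GFP tag. The labels give no age, treatment or animal for a library, so what the p-values measure is library-to-library spread, part or all of which may be technical. The description of reporter-null replicate 1 joins the numbers 1 and 4, and the labels do not say whether that marks pooled cells or animals.

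Type 2 cytokines are made by T helper 2 cells, group 2 innate lymphoid cells (ILC2), mast cells, basophils and eosinophils. IL-4 and IL-13 act through receptors that share IL-4R alpha and signal through STAT6, while IL-5, IL-3 and GM-CSF share the beta common chain encoded by Csf2rb. In T cells Il4, Il5 and Il13 are silent until Gata3 and activation-induced factors such as NFAT open and transcribe their locus. Foxp3, the transcription factor that defines Treg cells, restrains effector cytokine genes, and some Treg cells of the colon also express Gata3.

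The total count ran from 17670420 to 22395169 per library. Foxp3 stood at 75.7, 80.6 and 81.2 CPM (counts scaled to a common depth with TMM factors) in the reporter-null libraries, in the order of replicates 1, 2 and 3, against 764 and 770 CPM in Treg replicates 1 and 2. Thy1 was 269.8, 269.0 and 300.3 CPM in the reporter-null libraries, against 18.8 and 21.3 CPM in the Treg libraries, so both genes followed the labels. A pair of libraries, reporter-null replicate 2 and Treg replicate 1, stood apart in another respect. The descriptions of both carry the number 2, and the labels do not say what that number marks. The 10 epithelial markers summed to 1348 CPM in reporter-null replicate 2 but only 23.1 CPM in replicate 1 and 26.9 CPM in replicate 3, against 305 and 43.6 CPM in Treg replicates 1 and 2. The 10 stress and dissociation genes summed to 21791 CPM in reporter-null replicate 2 but 53139 CPM in replicate 1 and 46158 CPM in replicate 3, against 13555 and 47381 CPM in Treg replicates 1 and 2. The 9 T cell markers in the table summed to 7120, 6351 and 6380 CPM in reporter-null replicates 1, 2 and 3, against 5667 and 5896 CPM in the Treg libraries. The B and plasma cell markers summed to 838 CPM in reporter-null replicate 2 and 375 and 429 CPM in the other reporter-null libraries, against 1374 and 415 CPM in Treg replicates 1 and 2. The 5 cytokines were lowest, within the reporter-null group, in replicate 2. Il4, Il5 and Il3 were also lower in Treg replicate 1 than in Treg replicate 2, as were both features for 22.8% of all tested genes. Il13 (4 and 1 counts) and Csf2 (6 and 5 counts) were instead higher in Treg replicate 1. The part of these marker differences in the results below was not tested.

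The 5 tested cytokine transcripts all averaged higher in reporter-null than in Treg cells, by log2 fold changes of 3.43 to 6.75, but only Il13 passed the test (edgeR quasi-likelihood test, Benjamini-Hochberg adjusted p under 0.05 over all tested genes). That is 1 of 5 called, all in the higher direction, where 4.07% of all tested genes were called higher, 4.72% lower and 8.79% in either direction. At an unadjusted p under 0.05, Il13, Csf2 and Il4 were higher, 3 of 5, against 11.6% of all tested genes (22.6% in either direction). In 4 of the 5, every reporter-null library lay above both Treg libraries, as it did for 20.3% of all tested genes, and the groups did not overlap in either direction for 40.8%. The median log2 fold change was 4.37 over the 5 genes and 0.02 over all tested genes. In bulk libraries, fewer cells that make a transcript and less of it per cell cannot be told apart.

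**Figure D1:**
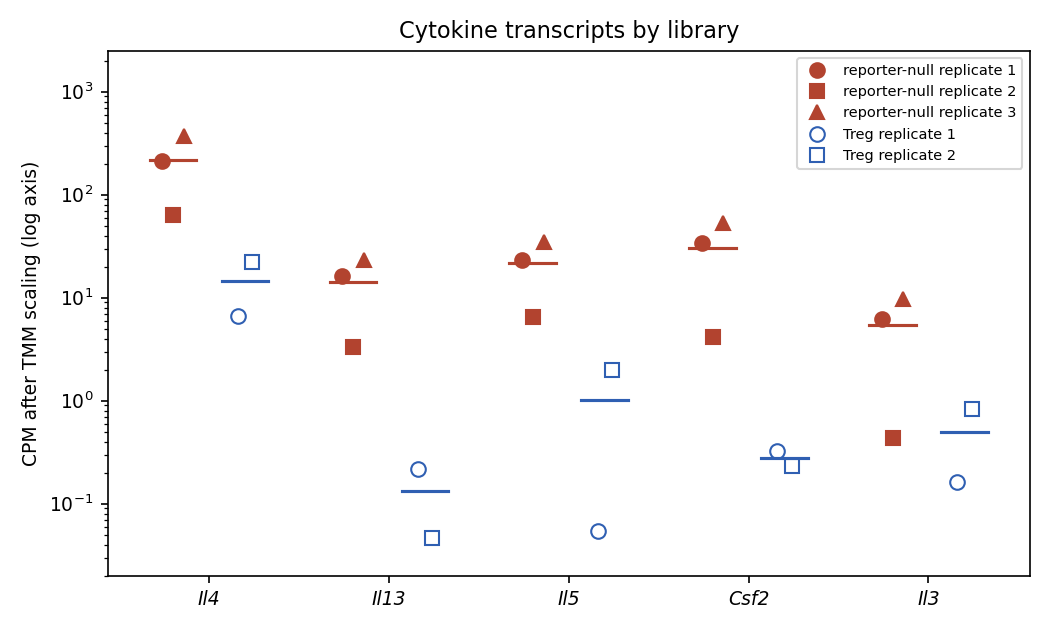
CPM after TMM scaling (log axis) of the 5 tested cytokine genes in each library, reporter-null in red and Treg in blue, with a bar at each group's mean. Reporter-null replicate 2 is the lowest red point for every gene, and for Il3 it lies at 0.432 CPM, under the 0.832 CPM of Treg replicate 2.

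Il4, the cytokine that drives T helper 2 differentiation and the IgE switch in B cells, had 3944, 1312 and 8421 counts in reporter-null replicates 1, 2 and 3, against 122 and 483 counts in Treg replicates 1 and 2. Scaled for depth this was 214, 62.9 and 374 CPM in the reporter-null libraries, against 6.62 and 22.3 CPM in the Treg libraries. The groups did not overlap, but the libraries of each group differed several-fold. The mean was 217 ± 156 CPM in reporter-null cells and 14.5 ± 11.1 CPM in Treg cells (SD, n = 3 and n = 2), which gave a log2 fold change of 3.90 with an SE of 1.18 and an adjusted p of 0.176 by the edgeR quasi-likelihood test.

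Il13, which acts on epithelium to raise mucus production and goblet cell number, had 300, 69 and 519 counts in reporter-null replicates 1, 2 and 3, against 4 and 1 counts in Treg replicates 1 and 2. In CPM these were 16.2, 3.31 and 23.1 in the reporter-null libraries, against 0.217 and 0.0462 in the Treg libraries. The lowest reporter-null library was far above the higher Treg library. The log2 fold change was 6.73 (with an SE of 1.31 and an adjusted p of 0.0471 by the edgeR quasi-likelihood test). The call rested on most libraries: when Treg replicate 1 or 2 was left out the adjusted p by edgeR was 0.229 or 0.232, and when reporter-null replicate 1 or 3 was left out it was 0.12 or 0.0549. The call held when reporter-null replicate 2 was left out. With 5 Treg counts in all, the depth-scaled ratio of summed counts was 115 (95% counting interval 49.1 to 355). Without Treg replicate 1 it was 311 (55.6 to 12292), resting on 1 Treg count. It was 66.2 (25.8 to 243) without Treg replicate 2 and 75.2 (31.9 to 233) without reporter-null replicate 3. Such intervals cover counting error only, since amplified reads are not independent molecules.

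Il5, the growth and survival factor of eosinophils, had 426, 137 and 788 counts in reporter-null replicates 1, 2 and 3, against 1 and 43 counts in Treg replicates 1 and 2. This was 23.1, 6.57 and 35.0 CPM in the reporter-null libraries, against 0.0543 and 1.99 CPM in the Treg libraries. The Treg libraries differed more from each other than the reporter-null libraries did, with a 36.6-fold gap that rests on 1 count in Treg replicate 1. The log2 fold change was 4.37 (SE 1.6, adjusted p = 0.232 by the edgeR quasi-likelihood test), and it ran from 3.44 without Treg replicate 1 to 8.48 without Treg replicate 2.

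Promoters of these 3 genes, the type 2 cytokine genes of the chromosome 11 locus, are shown so that the sequence before each start can be read beside its values. Each line gives the 250 bases before the RefSeq transcription start (build GRCm38.p6), read 5′ to 3′ on the strand of the gene. Il4 is chr11:53618666-53618915, Il13 is chr11:53634703-53634952 (both minus strand) and Il5 is chr11:53720544-53720793 (plus strand). Capitals mark every match on either strand to the NFAT core GGAAA, to a GATA site in any of the forms AGATAA, then AGATAG, then TGATAA, then TGATAG, and to a STAT site, which is TTC and GAA with 3 or 4 bases of any kind between them. The AP-1 site TGANTCA had no match in these 3 windows.
Il4: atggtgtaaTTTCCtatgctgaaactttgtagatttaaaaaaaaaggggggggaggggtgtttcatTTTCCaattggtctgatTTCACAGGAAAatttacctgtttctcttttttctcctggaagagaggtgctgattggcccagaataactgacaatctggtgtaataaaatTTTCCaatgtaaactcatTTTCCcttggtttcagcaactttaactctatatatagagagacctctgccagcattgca
Il13: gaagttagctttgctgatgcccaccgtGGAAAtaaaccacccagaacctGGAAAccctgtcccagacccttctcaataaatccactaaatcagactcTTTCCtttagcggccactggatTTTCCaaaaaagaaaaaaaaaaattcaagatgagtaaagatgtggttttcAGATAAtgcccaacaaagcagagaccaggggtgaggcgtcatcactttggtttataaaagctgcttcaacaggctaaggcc
Il5: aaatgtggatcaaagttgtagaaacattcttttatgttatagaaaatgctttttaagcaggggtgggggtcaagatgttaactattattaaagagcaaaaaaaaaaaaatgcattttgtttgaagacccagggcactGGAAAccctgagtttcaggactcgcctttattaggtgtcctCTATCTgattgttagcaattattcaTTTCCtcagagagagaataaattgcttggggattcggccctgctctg

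The Il4 window held 5 NFAT cores and a STAT-type match that overlaps the third core, and no GATA match. The Il13 window held 4 NFAT cores and 1 GATA match, and the Il5 window 2 NFAT cores and 1 GATA match. Among 32851 promoter windows of the same length in the RefSeq table, 55.6% held at least 1 NFAT core, 1.59% held 4 or more and 0.39% held 5 or more, while 26.5% held a GATA match, 12.4% a STAT match and 6.75% an AP-1 match. The Il3 window held 1 NFAT core and 1 GATA match. That of Csf2 held 2 NFAT cores and 1 GATA match, and that of Il9 held 3 NFAT cores, an AP-1 match and a STAT match. A match is a description of the letters and not evidence that a factor binds there.

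Csf2 encodes GM-CSF, which drives the growth and activation of myeloid cells and, made by T cells, is a mark of pathogenic helper responses. It had 632, 87 and 1184 counts in reporter-null replicates 1, 2 and 3, against 6 and 5 counts in Treg replicates 1 and 2. This was 34.2, 4.17 and 52.6 CPM in the reporter-null libraries, against 0.326 and 0.231 CPM in the Treg libraries. The Treg libraries were alike and near the limit of detection, and the spread lay among the reporter-null libraries. The log2 fold change was 6.75 (SE 1.62), the highest of the 5, with an adjusted p of 0.107 by the edgeR quasi-likelihood test. Without reporter-null replicate 2 it was 7.26 with an adjusted p of 3.52e-07 by edgeR. That library is the lowest of its group, so leaving it out raises the mean and narrows the spread by construction. Csf2 did not pass without reporter-null replicate 1 or 3. The ratio of summed counts was 112 (95% counting interval 62.5 to 225), and 66.6 (37.0 to 134) without reporter-null replicate 3.

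Il3, a growth factor of mast cells, basophils and early blood progenitors, had 115, 9 and 219 counts in reporter-null replicates 1, 2 and 3, against 3 and 18 counts in Treg replicates 1 and 2. This was 6.23, 0.432 and 9.74 CPM in the reporter-null libraries, against 0.163 and 0.832 CPM in the Treg libraries. It was the only tested gene of the 5 whose groups overlapped, through reporter-null replicate 2. The log2 fold change was 3.43 (SE 1.51, adjusted p = 0.275 by the edgeR quasi-likelihood test). Without that library it was 3.95 with an adjusted p of 0.00191 by edgeR, a fit that leaves out the lowest reporter-null value. Il3 did not pass without reporter-null replicate 1 or 3.

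Il9, which supports mast cells and is the cytokine of Th9 cells, had 7, 2 and 0 counts in reporter-null replicates 1, 2 and 3, against 0 and 0 counts in the Treg libraries. It failed the filter and was not tested. Taking 3 counts for the Treg group as the most that none detected allows, the depth-scaled ratio of reporter-null to Treg counts was at least 1.94. This bound takes the 9 reporter-null counts as exact and leaves out their counting error. In the fit with no filter, Il9 did not pass (adjusted p = 0.408 by the edgeR quasi-likelihood test). Leaving out reporter-null replicate 3 gave a bound of 3.06, and leaving out Treg replicate 1 gave 1.05. Without Treg replicate 2 or reporter-null replicate 1 the bound fell below 1 and gives no fold. At this depth Il9 was close to undetected in all 5 libraries.

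The reporter-null libraries were not interchangeable for these genes. Replicate 3 was highest, replicate 1 next and replicate 2 lowest for all 5 tested cytokines, an order shared by 27.2% of all tested genes. Replicate 3 over replicate 2 was 5.95-fold for Il4, 5.33-fold for Il5, 6.98-fold for Il13, 12.6-fold for Csf2 and 22.6-fold for Il3. Over the tested genes with a reporter-null count, the median ratio of highest to lowest reporter-null library was 1.33, and 9.03% of genes reached 5-fold. Replicate 3 alone held 58.3% to 63.8% of the reporter-null counts of each of the 5 genes.

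Other effector genes were uneven over the same libraries in part. The ratio of highest to lowest reporter-null library was 1.24 for Il17a and 1.2 for Il17f, the signature cytokines of Th17 cells, 1.14 for Ifng, the Th1 cytokine, and 1.21 for Cd3e, a chain of the T cell receptor complex. It was 6.29 for Il2, 5.9 for the chemokine Ccl1, 5.42 for Lif, 4.44 for Il22, 2.38 for Tnf and 2.08 for Il21, all but Tnf in the library order of Il4. Of the 25 tested T cell cytokines other than the 6, 15 (60%) were lowest in replicate 2. It was 2.01 for Gata3, the Th2 regulator, and 2.62 for Il1rl1, the IL-33 receptor, both lowest in replicate 2. Of 15 tested type 2 cell markers, 10 were lowest in reporter-null replicate 2 among the reporter-null libraries, as were 5612 of all 14164 tested genes (39.6%).

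**Figure D2:**
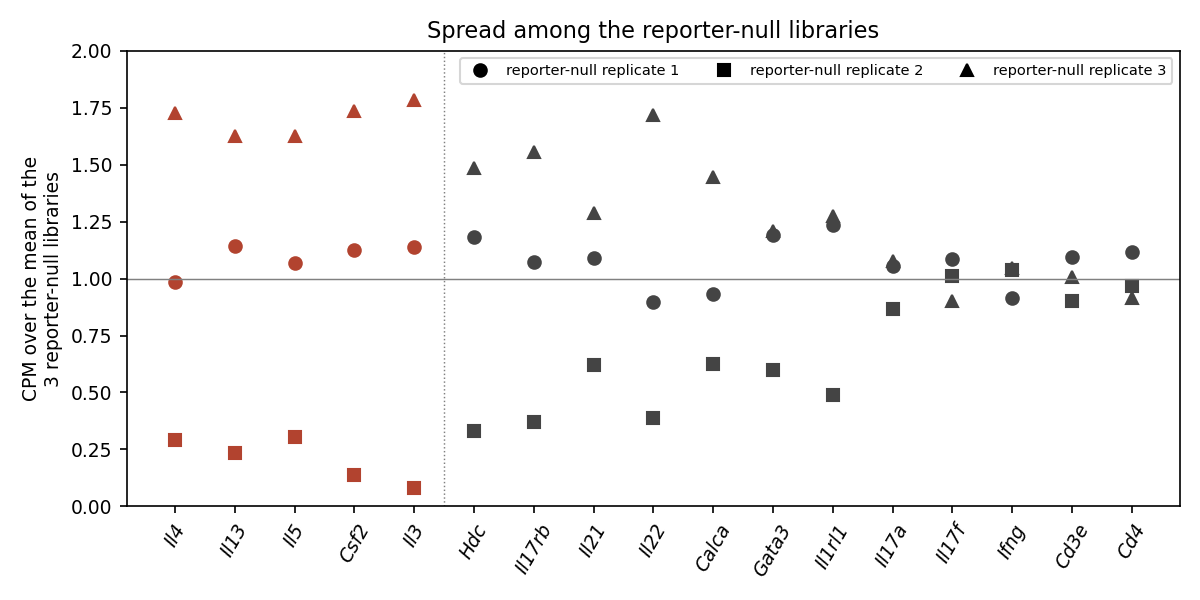
CPM of each reporter-null library divided by the mean of the 3, for the 5 tested cytokines (red, left of the dotted line) and for comparison genes (grey), with a marker shape per replicate. The squares of replicate 2 are lowest for all cytokines at left. Il17a, Il17f, Ifng, Cd3e and Cd4 lie close to 1, with ratios of highest to lowest of 1.14 to 1.24. Il22 is uneven too at 4.44, but less so than the cytokines at 5.33 to 22.6.

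Set against Treg libraries, even reporter-null replicate 2 held more of 4 of the 5 transcripts. Its depth-scaled ratio to the 2 Treg libraries together was 4.17 for Il4 (95% counting interval 3.78 to 4.6), 5.98 for Il5 (4.23 to 8.6), 26.5 for Il13 (10.8 to 84.2) and 15.2 for Csf2 (8.09 to 31.6). For Il3 it was 0.823 (0.332 to 1.88), an interval that includes 1. These ratios compare libraries, not conditions.

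Among the reporter-null libraries, though not between the Treg libraries, the proportions of Il5 and Il13 to Il4 were steadier than the level of Il4. Per 100 Il4 counts, Il5 had 10.8, 10.4 and 9.36 counts in reporter-null replicates 1, 2 and 3, against 0.82 and 8.9 in Treg replicates 1 and 2. Il13 had 7.61, 5.26 and 6.16 per 100 Il4 counts in the reporter-null libraries, against 3.28 and 0.207 in the Treg libraries. The Treg proportions rest on few counts, 1 and 43 of Il5 and 4 and 1 of Il13 in Treg replicates 1 and 2. The share of Il5 and Il13 relative to Il4 varied less over the 3 reporter-null libraries than Il4 itself, which differed 5.95-fold. Csf2 had 16.0, 6.63 and 14.1 per 100 Il4 counts in the reporter-null libraries, against 4.92 and 1.04 in the Treg libraries, and Il3 had 2.92, 0.686 and 2.6 against 2.46 and 3.73. For Csf2 and Il3 the share was lowest in reporter-null replicate 2.

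Levels of different genes are compared per kilobase of merged exon, with lengths from GENCODE M21, since the annotation behind the counts is not given in the sources used here. Il4 was the most abundant at 177 ± 127 CPM per kilobase in reporter-null cells, followed by Csf2 at 37.9 ± 30.6, Il5 at 14.03 ± 9.3, Il13 at 11.8 ± 8.33, Il3 at 8.69 ± 7.47 and Il9 at 0.295 ± 0.368 (SD, n = 3). The order was the same in every reporter-null library, but the group means of neighbours in it differed by less than the SD of the more abundant gene, except for Il4 over Csf2 and Il3 over Il9. In Treg cells Il4 also led at 11.8 ± 9.05 CPM per kilobase (SD, n = 2), with Il3 at 0.791 ± 0.752, Il5 at 0.664 ± 0.889, Csf2 at 0.348 ± 0.0835 and Il13 at 0.109 ± 0.1. Below Il4 the Treg order rests on few counts.

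Il4, Il13, Il5, Csf2 and Il3 lie in this order on chromosome 11, and Il9 lies on chromosome 13. Of 22 neighbouring genes on chromosome 11 in the table, 16 were tested. Of the 16, 3 were called higher and none lower, against 4.07% and 4.72% of all tested genes, and their median log2 fold change was 0.18. Rad50, whose introns hold the locus control region of the Th2 cytokine genes and which encodes a DNA repair protein, was at 63.3 ± 12.6 CPM in reporter-null cells and 34.0 ± 3.25 CPM in Treg cells, a log2 fold change of 0.90 (adjusted p = 0.0347). Kif3a, a kinesin subunit next to Il4, was at 30.1 ± 1.11 and 15.5 ± 0.887 CPM in reporter-null and Treg cells (0.95, adjusted p = 0.0102). Sept8, a septin gene beyond Kif3a, was at 25.9 ± 1.76 and 5.68 ± 0.785 CPM in reporter-null and Treg cells (2.19, adjusted p = 0.00136, all by the edgeR quasi-likelihood test).

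Rad50 lies between Il13 and Il5, and Kif3a and Sept8 lie beyond Il4. Their fold changes were smaller than those of the cytokines beside them. Irf1, an interferon response factor that follows Il5, was at 623 ± 24.2 and 813 ± 45.6 CPM in reporter-null and Treg cells (log2 fold change -0.39, adjusted p = 0.0936 by edgeR). P4ha2, a collagen hydroxylase next to Csf2, stood at 1.41 ± 0.577 and 0.533 ± 0.166 CPM (1.39, adjusted p = 0.298), and Acsl6, beyond Il3, was too low to test. Sept8 kept its call without each library in turn. Kif3a did not pass without Treg replicate 1 (0.0982), Treg replicate 2 (0.0625) or reporter-null replicate 1 (0.0641), and Rad50 passed only without reporter-null replicate 2, with 0.0637 to 0.213 without the others.

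**Figure D3:**
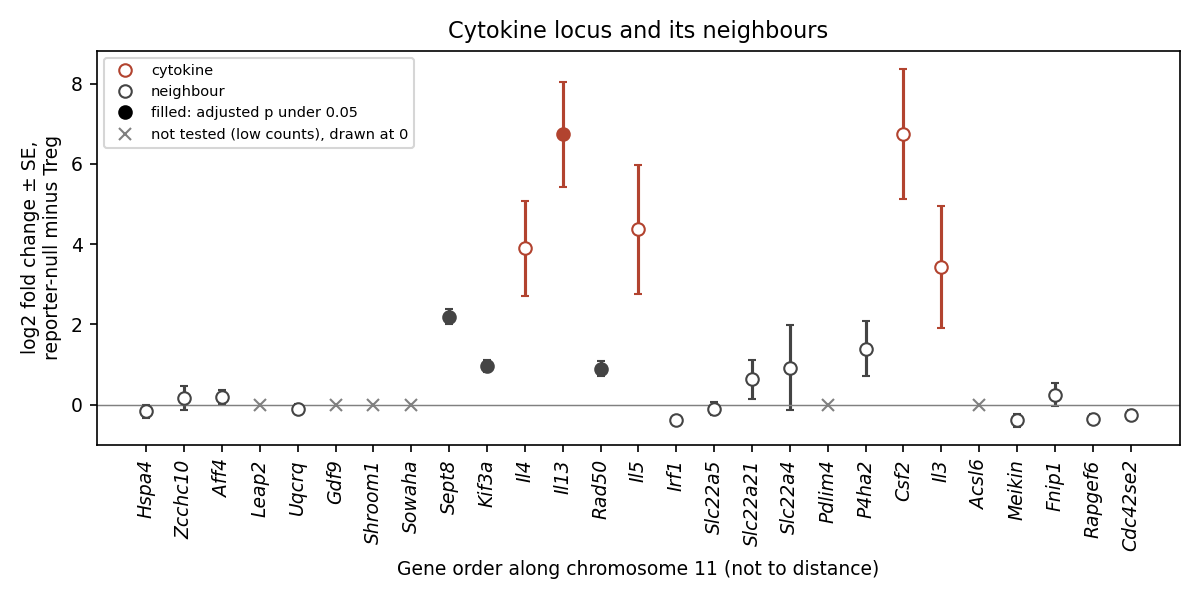
Log2 fold change (reporter-null minus Treg) with its SE for genes in their order along chromosome 11, cytokines in red and neighbours in black, filled where the adjusted p was under 0.05, with crosses for genes not tested. The 5 cytokines stand at 3.43 to 6.75, and the tested neighbours between -0.39 and 2.19.

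No receptor chain of these cytokines passed the test. Of 10 receptor chain genes, 7 were tested and none was called by edgeR, DESeq2 or limma-voom. At an unadjusted p under 0.05 there was 1 lower gene, and the median log2 fold change was -0.47. Il4ra, the IL-4R alpha chain, was 370, 656 and 275 CPM in reporter-null replicates 1, 2 and 3, against 706 and 820 CPM in the Treg libraries (log2 fold change -0.81, adjusted p = 0.303 by edgeR). It ran opposite to Il4 among the reporter-null libraries, highest where Il4 was lowest. Without reporter-null replicate 2 the test called 1 receptor gene higher and 2 lower. Over all genes, 3687 had an unadjusted p under 0.05 by edgeR in that fit, against 3199 with all libraries. The list counts with a library left out use the adjusted p instead, by which 1245 of all tested genes were called with all libraries. That number moved more than the unadjusted one when a library was left out, over a range given in the last section. Counts of called genes in the lists below stand beside that range. Il9r, the IL-9 receptor, was 40.5, 11.4 and 48.2 CPM in the reporter-null libraries, against 10.6 and 18.5 CPM in the Treg libraries (1.20, adjusted p = 0.428), and it too was lowest in replicate 2. Il2rg, the common gamma chain shared by the IL-4 and IL-9 receptors, stood at 1129 ± 134 and 1333 ± 80.1 CPM in reporter-null and Treg cells (-0.24, adjusted p = 0.402). Csf2rb was low, at 0.813 ± 0.69 and 2.01 ± 0.298 CPM (-1.30, adjusted p = 0.484).

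Genes known to activate the type 2 cytokines were split. Of 19 tested, 4 were called higher and 3 lower, against 4.07% and 4.72% of all tested genes. The median log2 fold change of the 19 was 0.25. Gata3 was 526.9, 265 and 534 CPM in reporter-null replicates 1, 2 and 3, against 337 and 408 CPM in the Treg libraries (0.25, adjusted p = 0.742). Stat6, which relays IL-4 signals, was level at 255 ± 29.5 and 257 ± 24.0 CPM in reporter-null and Treg cells (-0.01, adjusted p = 0.979). Its direction flipped without Treg replicate 2 or reporter-null replicate 3. Among the called genes, Notch1 (0.72, adjusted p = 0.0166) and its transcriptional partner Rbpj (1.66, adjusted p = 0.00164) were higher. Bhlhe41, a repressor that promotes Th2 differentiation (-3.16, adjusted p = 0.00276), and the chromatin organiser Satb1 (-1.60, adjusted p = 0.00741) were lower. Gata3 passed only without reporter-null replicate 2 (0.0399), the library of that group where it was lowest. Notch1 did not pass without Treg replicate 1 (0.155), Treg replicate 2 (0.0625) or reporter-null replicate 1 (0.0891), nor Satb1 without Treg replicate 1 (0.0741). The list had 1 higher and 1 lower gene without Treg replicate 1, 1 higher and 2 lower without Treg replicate 2 or reporter-null replicate 1, and 6 higher and 3 lower without reporter-null replicate 2.

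Of 14 tested genes that restrain type 2 cytokines, 5 were called lower and 1 higher, against 4.72% and 4.07% of all tested genes. The median log2 fold change of the 14 was -0.11. The lower genes include Foxp3 itself (-3.28, adjusted p = 5.45e-05), the repressor Bcl6 (-1.38, adjusted p = 0.00416), the MAP kinase phosphatase Dusp10 (-1.503, adjusted p = 0.00297) and Socs5, an inhibitor of IL-4 signalling (-1.26, adjusted p = 0.00606). For Foxp3 the sort and the interrupted allele cannot be told apart. Without Treg replicate 1 the adjusted p by edgeR was 0.0536 for Bcl6 and 0.0723 for Socs5, and without Treg replicate 2 it was 0.0569 for Socs5. The count of lower genes in the list fell when either Treg library was left out, a fit with 1 Treg library. It stayed at 5 without each reporter-null library in turn. The number called over all genes also moved with a library left out.

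Genes that regulate GM-CSF and IL-3 were higher in part. Of 12 tested, 5 were called higher and none lower, against 4.07% and 4.72% of all tested genes. The median log2 fold change of the 12 was 0.70. Bhlhe40, a factor required for GM-CSF in helper T cells, was 2759, 4125 and 2058 CPM in reporter-null replicates 1, 2 and 3, against 1033 and 1072 CPM in the Treg libraries (1.502, adjusted p = 0.033). Its highest library was the one with the least Csf2 among the reporter-null libraries. Il23r, the IL-23 receptor chain, rose (1.94, adjusted p = 0.0288), as did Nfkb1 (0.74, adjusted p = 0.00818) and Runx1 (0.65, adjusted p = 0.0166, all by edgeR). These 4 genes did not pass without Treg replicate 1, Treg replicate 2 or reporter-null replicate 1, with adjusted p from 0.0543 to 0.232. The list had 1 called gene without Treg replicate 1 or reporter-null replicate 1, and 2 without Treg replicate 2.

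Of 9 genes tied to IL-9, 1 was called higher and 2 lower, against 4.07% and 4.72% of all tested genes. Tgfbr2, a TGF-beta receptor chain, rose (1.27, adjusted p = 0.00268), while Tnfrsf4, which encodes OX40 (-1.64, adjusted p = 0.0011), and the factor Foxo1 (-0.53, adjusted p = 0.047 by edgeR) fell. Foxo1 passed only without reporter-null replicate 2, with 0.074 to 0.24 without each of the others.

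Markers of type 2 cells did not move together. Of 15 tested, 2 were called higher and 5 lower, against 4.07% and 4.72% of all tested genes. The median log2 fold change of the 15 was -0.07. The chemokine receptors Ccr3 (-6.78, adjusted p = 0.00217) and Ccr8 (-1.78, adjusted p = 0.0191) and the secreted protein Ecm1 (-1.499, adjusted p = 0.00416) were lower, and Tnfsf11, which encodes RANKL, was higher (1.47, adjusted p = 0.00818). Ccr3 kept its call without each library. Ccr8 passed only without reporter-null replicate 2, with 0.0578 to 0.114 otherwise, Ecm1 did not pass without Treg replicate 2 (0.0533), and Tnfsf11 did not pass without Treg replicate 1 (0.0653). Without reporter-null replicate 2 the list had 4 higher and 7 lower genes, and without any other library 1 or none higher and 1 to 3 lower. Il1rl1 was 104, 41.0 and 107 CPM in reporter-null replicates 1, 2 and 3, against 85.3 and 83.1 CPM in the Treg libraries, with no direction that held over settings (0.00, adjusted p = 0.998 by edgeR).

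Among 25 tested cytokine genes of T cells other than the 6, 7 were called higher and 4 lower, against 4.07% and 4.72% of all tested genes. The median log2 fold change of the 25 was 0.81. Il17f (7.51, adjusted p = 0.0022) had a larger log2 fold change than any of the 5 cytokines, and Il17a stood at 5.86 (adjusted p = 0.00762). Both had higher levels in each reporter-null library than in either Treg library. The co-stimulatory ligands Cd40lg (2.49, adjusted p = 0.000606) and Tnfsf8 (2.85, adjusted p = 0.000626) and Ifng (1.40, adjusted p = 0.0116) were higher, and Ltb, a lymphotoxin chain, was lower (-1.16, adjusted p = 0.00298). Il2, the T cell growth factor, had 5.03, 1.73 and 10.9 CPM in reporter-null replicates 1, 2 and 3, against 0.109 and 0.508 CPM in the Treg libraries (4.21, adjusted p = 0.0728 by edgeR), the same order of libraries as Il4. Without reporter-null replicate 2, 11 of these genes were called higher and 4 lower. Without Treg replicate 1 there were 5 higher and 3 lower, without Treg replicate 2 there were 6 higher and 1 lower, without reporter-null replicate 3 there were 7 higher and 2 lower, and without reporter-null replicate 1 there were 7 higher and 1 lower.

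The genes whose pattern over the 5 libraries was most like each cytokine were found by the root mean square difference of log2 CPM, each gene centred on its own mean, among 8967 genes with a mean log2 CPM of at least 3. This describes 5 points that share the group difference and says nothing of shared control. Nearest to Il4 were Hdc, the enzyme that makes histamine (0.36), Il17rb, the receptor chain for IL-25 (0.56), and Il21, a helper cytokine for B cells (0.63). Hdc had 41.6, 11.7 and 52.1 CPM in reporter-null replicates 1, 2 and 3, against 1.41 and 2.45 CPM in the Treg libraries (log2 fold change 4.17, adjusted p = 0.0621 by edgeR). Il17rb had 125.5, 43.6 and 182 CPM in the reporter-null libraries, against 10.0 and 14.1 CPM in the Treg libraries (3.28, adjusted p = 0.0973). Each of these reached several-fold higher levels in all 3 reporter-null libraries than in the Treg libraries, with replicate 2 lowest.

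Nearest to Il5 were Il22 (0.34), which acts on epithelial cells, Calca (0.47), which encodes the neuropeptide CGRP, and the chemokine Ccl20 (0.82). Calca had 124, 83.5 and 192.8 CPM in reporter-null replicates 1, 2 and 3, against 1.3 and 13.8 CPM in the Treg libraries. Il13 and Csf2 were nearest to each other, at 0.38, closer than either was to any gene above the level set for the search. In that set, Prr5l (0.97), Amph (0.99) and Il21 (1.06) were nearest to Il13, and Amph (1.07), Hdc (1.08) and Il21 (1.17) to Csf2. Nearest to Il3 were Impg1 (0.66), St6galnac5 (0.80) and Il4 (0.83).

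Cells other than T cells can make these cytokines, so markers of those cells are given beside them. The mast cell list had 11 genes in the table and summed to 68.9, 52.7 and 67.7 CPM in reporter-null replicates 1, 2 and 3, against 9.49 and 11.2 CPM in Treg replicates 1 and 2. Hdc and Kit, the stem cell factor receptor, held most of that sum. Of 7 protease genes in the list, Mcpt1, Mcpt2, Mcpt4 and Tpsb2 had at most 13 counts in a reporter-null library, against no count in either Treg library. Tpsab1 had 0 counts in every reporter-null library, against 2 and 0 counts in the Treg libraries. Cma1 had 1, 37 and 0 counts in reporter-null replicates 1, 2 and 3, against 6 and 0 counts in the Treg libraries. Cpa3 had 7, 18 and 13 counts in the reporter-null libraries, against 21 and 24 counts in the Treg libraries. None of the 7 had the library order of the cytokines among the reporter-null libraries except Mcpt2, at 2, 1 and 4 counts, whereas Hdc had it. At 26.7, 37.2 and 14.7 CPM in reporter-null replicates 1, 2 and 3, against 6.51 and 7.67 CPM in the Treg libraries, Kit ran the reverse way. Kit was called higher (1.88, adjusted p = 0.0439 by edgeR), and did not pass without Treg replicate 1 (0.31), Treg replicate 2 (0.225) or reporter-null replicate 1 (0.138).

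The basophil list of 7 genes summed to 22.6, 17.0 and 29.3 CPM in the reporter-null libraries, against 22.9 and 19.9 CPM in the Treg libraries. Its protease gene Prss34 was at 0 in all 5 libraries, and Mcpt8 had 7, 0 and 1 counts in reporter-null replicates 1, 2 and 3, against 2 and 0 counts in the Treg libraries. Most of the sum was Il3ra, the IL-3 receptor alpha chain, at 15.7, 15.6 and 13.5 CPM in the reporter-null libraries, against 22.3 and 19.2 CPM in the Treg libraries. Cd200r3, an activating receptor of basophils and mast cells, was at 6.44, 1.05 and 15.7 CPM in reporter-null replicates 1, 2 and 3, against 0 and 0.647 CPM in the Treg libraries (log2 fold change 4.53, adjusted p = 0.279 by edgeR). Its library order was that of the cytokines. The eosinophil list of 7 genes summed to 0.271, 0.767 and 1.02 CPM in the reporter-null libraries, against 34.3 and 23.6 CPM in the Treg libraries, nearly all of it Ccr3, and the granule gene Epx was at 0 in all 5 libraries. The ILC2 list of 10 genes summed to 1357, 1187 and 1415 CPM in the reporter-null libraries, against 1554 and 1627 CPM in the Treg libraries. Of the 10, 1 was called higher and 2 lower, against 4.07% and 4.72% of all tested genes. Rora, Il2ra and Klrg1 held most of that sum. Il17rb and Calca, given above among the genes of most similar pattern, are also in the ILC2 list and ranked the reporter-null libraries as the cytokines did. Il1rl1, in the same list, did too, and the rest of the list did not have that full order. Of the 10, 7 were lowest in reporter-null replicate 2 among the reporter-null libraries, as were 39.6% of all tested genes. Kit and Rora ran the reverse way, highest in replicate 2 and lowest in replicate 3. Cd4 was 1554, 1346 and 1270 CPM in reporter-null replicates 1, 2 and 3, against 682 and 719 CPM in the Treg libraries (0.99, adjusted p = 0.00796 by edgeR), which no longer passed when Treg replicate 1 (0.11) or 2 (0.0827) was left out.

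The list of gamma-delta and innate-like T cell markers had 8 genes. Only 4 of them were in the table, and the gamma-delta receptor chain genes were not among these. Of the 4, 2 were called higher in reporter-null cells and none lower. The 2 are the surface receptor gene 5830411N06Rik and the kinase gene Blk. Of all tested genes, 4.07% were called higher and 4.72% lower. The list of 4 markers summed to 609, 629 and 424 CPM in reporter-null replicates 1, 2 and 3, against 12.3 and 11.9 CPM in the Treg libraries. Most of that sum was 5830411N06Rik, at 551, 584 and 381 CPM in the reporter-null libraries, against 7.16 and 6.89 CPM in the Treg libraries. The sum, and 5830411N06Rik with it, was lowest in replicate 3, where Il4, Il5, Il13, Csf2 and Il3 were highest. Blk was lowest in replicate 2, at 54.3, 36.8 and 40.8 CPM in reporter-null replicates 1, 2 and 3. The part of any of these cells in the cytokine levels was not tested.

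**Figure D4:**
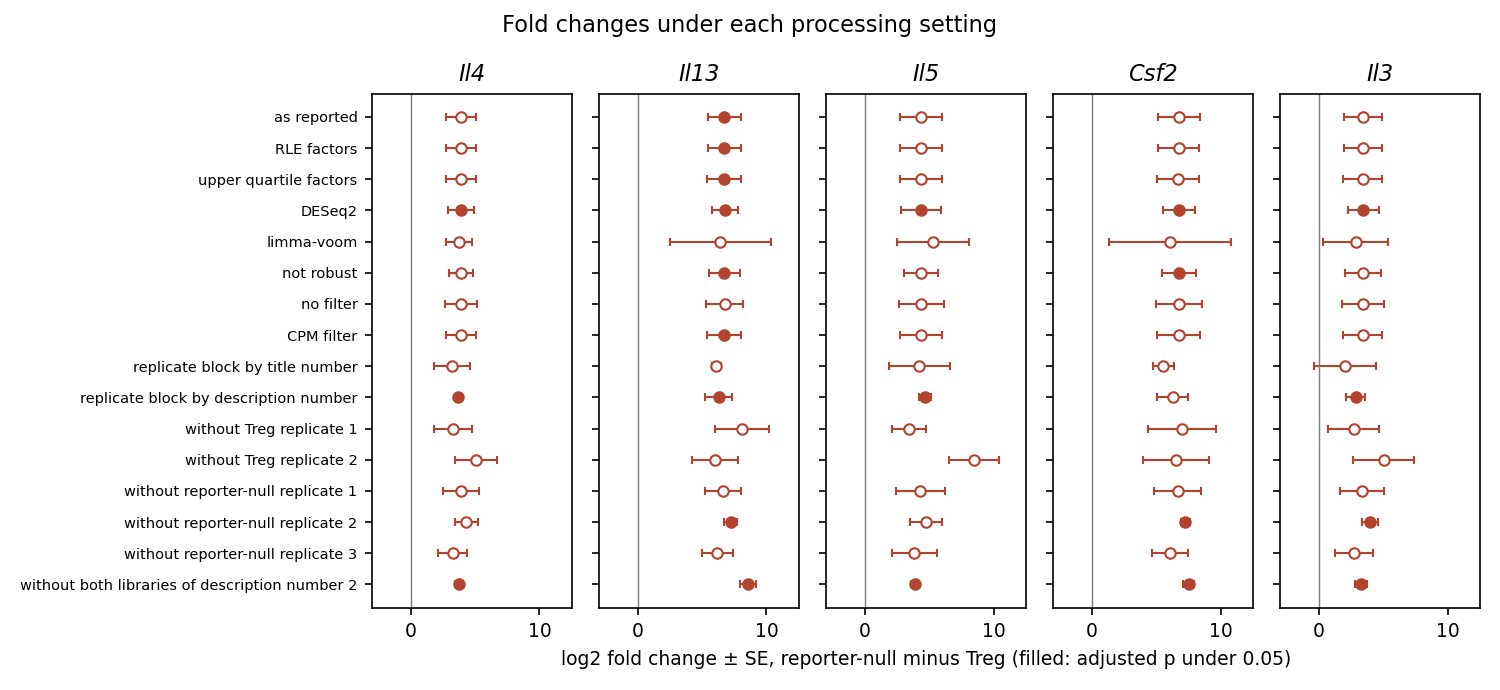
Log2 fold change (reporter-null minus Treg) with its SE for each tested cytokine under each processing setting, filled where the adjusted p was under 0.05. All values are above 0, from 2.03 to 8.56, while the number of filled points per gene varies.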

How the data were processed

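The authors deposited raw counts by gene symbol for 5 libraries in a single table. The labels' protocols give TRIzol extraction, SMART-Seq v4 amplification, KAPA Hyper Prep libraries and paired HiSeq reads. The submitters' processing notes name DESeq. Aligner, build, annotation and strand setting: not given in the sources used here. In GENCODE M21 an antisense model overlaps exons of Il5 (Gm12214) and of Csf2 (Gm12223), so reads of these cannot be told apart.

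Of 24421 rows, 4 named NA (at most 0.00492% of counts) were left out. Counts were filtered (filterByExpr, minimum 10, total 15), TMM-scaled and tested with the robust quasi-likelihood test of edgeR 4.0.16 in R 4.3.3, called at a Benjamini-Hochberg adjusted p under 0.05. The SE is the log2 fold change over the square root of F. The steps were tested on simulated data. No 2 libraries of a group agreed within sampling noise (chi-square per degree of freedom 21.3 or more). Log2 CPM used a prior count of 2. RefSeq promoters (GRCm38.p6) were found for all 6 genes. For Il4 the farther upstream of 2 starts was used. The members and lists were chosen with earlier results of these data known, so list counts are descriptions. The text names the 6 genes, a set of regulators, receptors and neighbours, up to 4 called genes per list and the 3 genes of most similar pattern; 1 gene the rule names is not reported here. Mast cell proteases, Prss34, Mcpt8, Epx, Cd200r3, Il3ra, Rora, Il2ra, Klrg1, Ccl1, Lif, Tnf and Cd3e were added after their values were seen. Alternatives were limma-voom (limma 3.58.1), DESeq2 1.42.0, the non-robust test, upper quartile or RLE scaling, other filters, replicate blocks and libraries left out.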

Additional observations from a re-analysis of the deposited data

How the results depend on the processing

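All 5 tested cytokines kept a positive log2 fold change under all 15 alternatives, but their calls moved. The number called was 1 in the report, 5 with DESeq2 and 2 without the robust option (Il13 and Csf2). It was 0 with limma-voom (1 at an unadjusted p under 0.05) and 0 of 6 with no filter (2 unadjusted). Leaving out a library gave 0 to 3, with 3 only without reporter-null replicate 2 and 1 or 2 genes at an unadjusted p under 0.05 in the other 4 edgeR fits. Over all genes, 1245 were called, 2323 with DESeq2 and 341 to 2035 with a library left out. DESeq2 gave log2 fold changes of 3.91 for Il4, 4.40 for Il5, 3.45 for Il3 and 6.77 for Csf2. Csf2 passed at 6.75 without the robust option. Il13 missed the threshold at 6.43 with limma-voom and at 6.75 with no filter. With a library left out, Il4 ran from 3.25 to 5.04, Il5 from 3.44 to 8.48, Il13 from 5.998 to 8.09, Il3 from 2.71 to 5.02 and Csf2 from 6.08 to 7.26. Dropping a Treg library leaves 1, assumed to vary like the others.

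The title numbers and the description numbers pair the libraries differently, and nothing in the labels ties either to an animal. Over the tested genes, deviations from the group means correlated at -0.511 and -0.602 for pairs with the same title number and at 0.602 and 0.481 for pairs with the same description number. With 2 Treg libraries the deviations of these are mirror images, so -0.602 and 0.602 are a single value with its sign turned and the check cannot weigh the pairings separately. With a replicate block by title number, 24 genes and 0 of the 5 cytokines were called by edgeR (2 at an unadjusted p under 0.05), with Il13 at 6.11. With a replicate block by description number, 1399 genes and 4 cytokines were called, at 3.69 for Il4, 4.65 for Il5 and 2.86 for Il3, with Csf2 not among them. Without both libraries of description number 2, which leaves 1 Treg library, 2152 genes and 5 cytokines were called, at 3.72 for Il4, 3.87 for Il5, 3.26 for Il3 and 7.52 for Csf2. Il1rl1 (0.00 in the report) turned to 0.011 with no filter, 0.02 when Treg replicate 1 was left out, 0.32 when reporter-null replicate 2 was (-0.22 to 0.32 over the libraries left out), and 0.35 when both libraries of number 2 were. Stat6 turned to 0.085 with the replicate block by title number, 0.093 when Treg replicate 2 was left out and 0.082 when reporter-null replicate 3 was (-0.10 to 0.093 over the libraries left out). The cause of these changes was not tested. Depth limits Il9 in all libraries and Il13, Csf2, Il3 and, in replicate 1, Il5 in Treg cells, where counts ran from 1 to 18.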
